A study of Mus musculus with 3 samples.

Results

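Genes for molecular chaperones, the proteins that help other proteins fold, were followed through single cells of the mouse subventricular zone, the stem cell niche along the lateral ventricle. They are 10 of the 16178 genes in the deposited table, chosen by name with earlier results of these data known. In the cytosol act 6 of them (Hsp90aa1, Hsp90ab1, Hspa8, Hspa4, Hsph1, Dnaja1). Another 2 act in the endoplasmic reticulum, or ER (Hsp90b1, Hspa5), and 2 in mitochondria (Hspd1, Hspe1). Together the 10 genes gave 0.615% of all transcripts, of which the cytosolic genes gave 0.505%, the ER genes 0.0823% and the mitochondrial genes 0.0278%.

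Chaperones of the HSP70 class hold unfolded stretches of protein while ATP is split and exchanged, J proteins such as Dnaja1 bring clients to them, and members of the HSP110 branch such as Hspa4 and Hsph1 exchange the nucleotide. HSP90 proteins take over kinases and receptors at a later stage of folding. The ER has its own HSP70 and HSP90, BiP (Hspa5) and GRP94 (Hsp90b1), whose genes are targets of the unfolded protein response, and the mitochondrion has a folding chamber, HSP60 (Hspd1), closed by the lid HSP10 (Hspe1). Many of these genes are constitutively active, and heat shock factor raises several of them under stress.

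The cells came from male C57BL/6J mice supplied by Envigo, 8 in each experiment, and no treatment or allele divides the samples: the 3 samples form 1 group and each is 1 plate. Tissue was dissociated with trypsin at body temperature, cells carrying GLAST, a glutamate transporter of astrocytes and stem cells, were held on a magnetic column, and single cells were sorted into wells for SORT-seq, which counts transcripts by barcoded tags near their 3′ ends. Myelin was removed in 2 of the 3 experiments, which the labels do not name, so plate, day and myelin removal cannot be told apart. The age of the mice is not stated in the labels, and mice were pooled within an experiment. The 149 kept cells had 297573, 413728 and 478504 transcripts on plates 1 to 3. Plates reuse well positions: 50 of 86 well names occurred on at least 2 plates and 13 on all 3.

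The label of the samples is neural stem cells, and most cells went against it. The authors' clusters 0 and 2 (42 and 35 cells) were highest for 3 and 3 of 6 oligodendrocyte markers and are called oligodendrocyte-like here. Cluster 1 (36 cells) was highest for 7 of 7 microglial markers and is called microglia-like. Cluster 3 (30 cells) was highest for 10 of 10 genes of quiescent stem cells or astrocytes, which these markers do not part. Cluster 4 (6 cells, 5 on plate 1 and 1 on plate 2) was highest for 7 of 7 genes of dividing cells and 4 of 4 genes of activated or neurogenic cells. Median transcripts per cell were 9530, 3455, 8615, 4192 and 17377 in clusters 0 to 4. The authors drew the clusters from the same values, so differences between clusters are descriptions without a test. No doublet caller was run.

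Promoter sequences are shown for members whose start regions hold binding motifs of the stress programmes that name these genes. RefSeq promoters (GRCm38.p6, the 250 bases before and 50 after a gene start) were at hand for 7 of the 10 members, in 11 entries. The motifs were searched on both strands: the heat shock element as GAANNTTCNNGAA and the ER stress element as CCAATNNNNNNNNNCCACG. In the sequences that follow, capitals mark a motif.

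Hspe1: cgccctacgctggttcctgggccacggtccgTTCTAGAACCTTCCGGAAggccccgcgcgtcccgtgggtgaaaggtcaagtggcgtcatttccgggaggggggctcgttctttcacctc
Hsph1: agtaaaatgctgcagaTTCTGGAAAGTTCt
Hspa5: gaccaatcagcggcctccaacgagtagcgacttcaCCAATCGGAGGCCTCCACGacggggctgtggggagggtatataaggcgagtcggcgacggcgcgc
Hsp90b1: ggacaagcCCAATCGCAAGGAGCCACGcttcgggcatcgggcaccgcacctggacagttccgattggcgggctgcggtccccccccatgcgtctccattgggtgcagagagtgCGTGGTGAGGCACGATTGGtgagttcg

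The Hspe1 stretch, chr1:55088028-55088147 on the plus strand, is the 120 bases before its start. It holds 2 overlapping heat shock elements, 1 on each strand, between 89 and 72 bases before the start. Hspd1 and Hspe1 lie head to head on chromosome 1 (55077835 to 55088243 on the minus strand and 55088132 to 55091307 on the plus strand in GENCODE), so that the same element also lies before a start of Hspd1. The Hsph1 stretch, chr5:149636287-149636316 on the minus strand, holds 1 element between 37 and 49 bases after the start of its entry. Counted from the start in another Hsph1 entry, an element lies between 16 and 28 bases after it. The Hspa5 stretch, chr2:34771990-34772089 on the plus strand, holds 1 ER stress element, and the Hsp90b1 stretch, chr10:86705525-86705664 on the minus strand, holds 2. Of 32851 promoters, 0.603% hold this heat shock element and 0.119% this ER stress element. The first was found in 3 of the 7 members (Hspd1, Hspe1, Hsph1) and the second in 2 (Hsp90b1, Hspa5). Dnaja1 had only the shorter form GAANNTTC, which 7.86% of promoters hold, and Hspa4 had none of the 3. A match describes these letters and is not a measured binding site.

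The cytosolic chaperones, taken as a sum, were high in oligodendrocyte-like and dividing cells and low in microglia-like cells and cluster 3. Their summed level, in CPM, the usual scaling of transcripts to a common total, was 5805 ± 696 in cluster 0 (SD, n = 2 plates), 5521 ± 1010 in cluster 2 (n = 3), 2539 ± 238 in cluster 1 (n = 3) and 1638 ± 96.2 in cluster 3 (n = 2). Cluster 4, with 1 plate of at least 3 cells, stood at 6334 (exact Poisson 95% interval 5828 to 6867). The 5 sums of clusters 0 and 2 ran from 4528 to 6547, above the 3 sums of cluster 1 (2265 to 2690), which were in turn above both sums of cluster 3 (1570 and 1706). With TMM scaling the order of the first places turned, cluster 0 at 7404, cluster 2 at 6765 and cluster 4 at 5848, and cluster 3 stayed lowest at 1556, but the ranges of clusters 1 and 3 then overlapped (1529 to 2682 and 1140 to 1971). Fewer transcripts of these genes and more of all others cannot be told apart in a share of the total. Hsp90aa1, Hsp90ab1 and Hspa8 gave 2208, 1592 and 1681 of the 6005 cytosolic transcripts, so they set most of the sum.

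**Figure D1:**
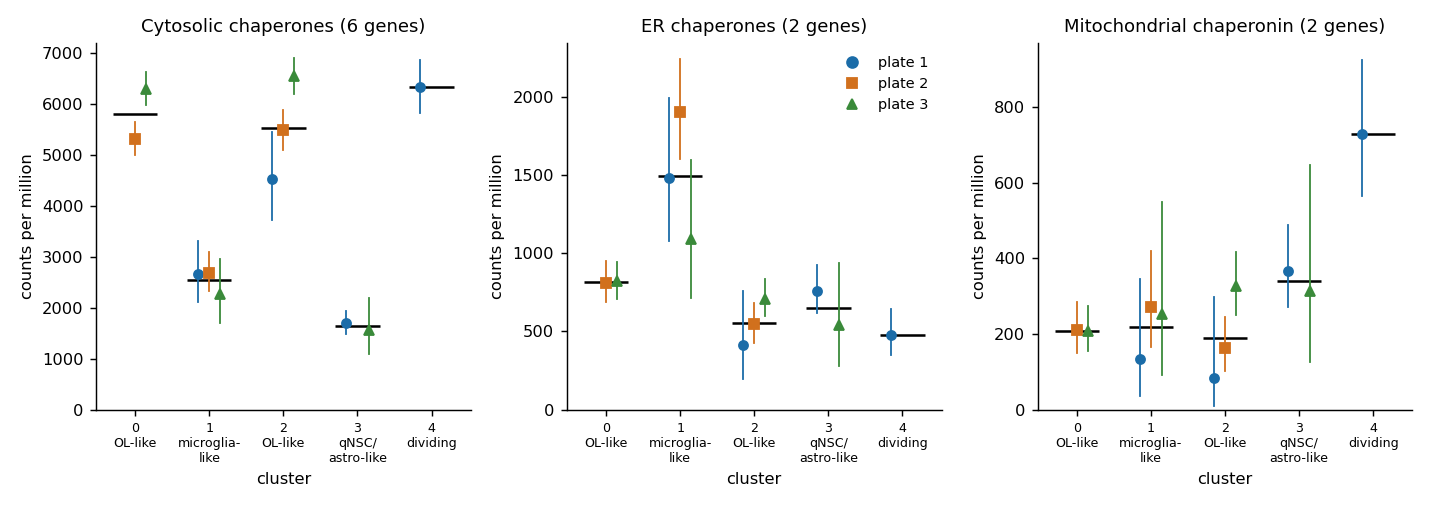
Summed level of the 6 cytosolic, 2 ER and 2 mitochondrial chaperones in CPM (y axis) by cluster (x axis; OL, oligodendrocyte; qNSC, quiescent neural stem cell). Points are plates with at least 3 cells of a cluster, with exact Poisson 95% intervals for counting error, and horizontal lines are means over plates. Cytosolic levels run from 1570 to 1706 in cluster 3 and from 4528 to 6547 in clusters 0 and 2, while ER levels are highest in cluster 1 at 1091 to 1902.

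Hsp90aa1, the stress-inducible cytosolic HSP90, was high in oligodendrocyte-like and dividing cells and low in clusters 1 and 3. It stood at 2165 and 2357 CPM in cluster 0 on plates 2 and 3, at 2225, 2156 and 2685 in cluster 2 on plates 1 to 3, and at 2042 in cluster 4. In cluster 1 it was at 404, 707 and 294, and in cluster 3 at 344 and 359 on plates 1 and 3. No sum of at least 3 cells overlapped between these sides. Single cells lay between them: the 1 cell of cluster 3 on plate 2 was at 1231 (399 to 2871), which lifts the mean of cluster 3 from 351 to 645 if admitted, and the 1 cell of cluster 0 on plate 1 was at 1116 (705 to 1669). Hsp90ab1, the constitutive form, was less uneven. It stood at 1343 and 1751 CPM in cluster 0, at 946, 1333 and 1807 in cluster 2, at 1548 in cluster 4, at 1011, 693 and 1049 in cluster 1 and at 375 and 269 in cluster 3. Clusters 1 and 2 overlapped and cluster 3 lay below all others. Of the transcripts of the HSP90 pair, Hsp90aa1 made up 33.6 ± 15.0% in cluster 1 (SD, n = 3), 63.9 ± 5.49% in cluster 2 (n = 3), 59.5 ± 3.05% in cluster 0 (n = 2), 52.5 ± 6.56% in cluster 3 (n = 2) and 56.8% in cluster 4. The highest plate of cluster 1 (50.5%) lay below each sum of clusters 0, 2 and 4, and between the 2 values of cluster 3, 47.9 and 57.1%. The 2 genes are counted by different 3′ tags, so the share is compared between clusters and not read as a ratio of molecules.

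Hspa8, the constitutive HSP70, followed Hsp90ab1, with which its log2 level correlated at r = 0.914 over the 11 sums of a plate and cluster. It stood at 1401 and 1777 CPM in cluster 0, at 1070, 1504 and 1592 in cluster 2, at 1112, 924 and 839 in cluster 1, at 788 and 628 in cluster 3 and at 1712 in cluster 4. Cluster 3 was again lowest, and clusters 1 and 2 met on plate 1. Dnaja1, a J protein partner of Hspa8, ranged from 250 to 338 CPM in clusters 0 and 2, from 0 to 217 in cluster 1 and from 145 to 269 in cluster 3, and stood at 544 (403 to 716) in cluster 4.

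Hspa4 and Hsph1, both of the HSP110 branch, were rare, with 101 and 99.0 transcripts in 50 and 40 of the 149 cells. Pooled over plates, Hsph1 had 37.0 transcripts in cluster 0 (82.7 CPM, exact Poisson interval 58.2 to 114), 28.0 in cluster 2 (78.4, 52.1 to 113), 2 in cluster 1 (15.7, 1.90 to 56.8), 4 in cluster 3 (25.5, 6.93 to 65.2) and 28.0 in cluster 4 (278, 185 to 401). Cluster 4 lay above the other 4 clusters, and the intervals of clusters 1 and 3 overlap. Of those 28.0 transcripts, 22.0 came from 5 cells of plate 1, at 110, 0, 453, 154 and 443 CPM, and 6.00 from the single cell of plate 2, at 688. Hspa4 stood at 250 CPM in cluster 4 on plate 1 (158 to 375), where 13 of 23.0 transcripts came from 1 cell. Its means were 57.5, 79.9, 60.3 and 33.9 in clusters 0 to 3, so it was not low in cluster 1. The ranges over plates of clusters 0, 1 and 2 overlapped.

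**Figure D2:**
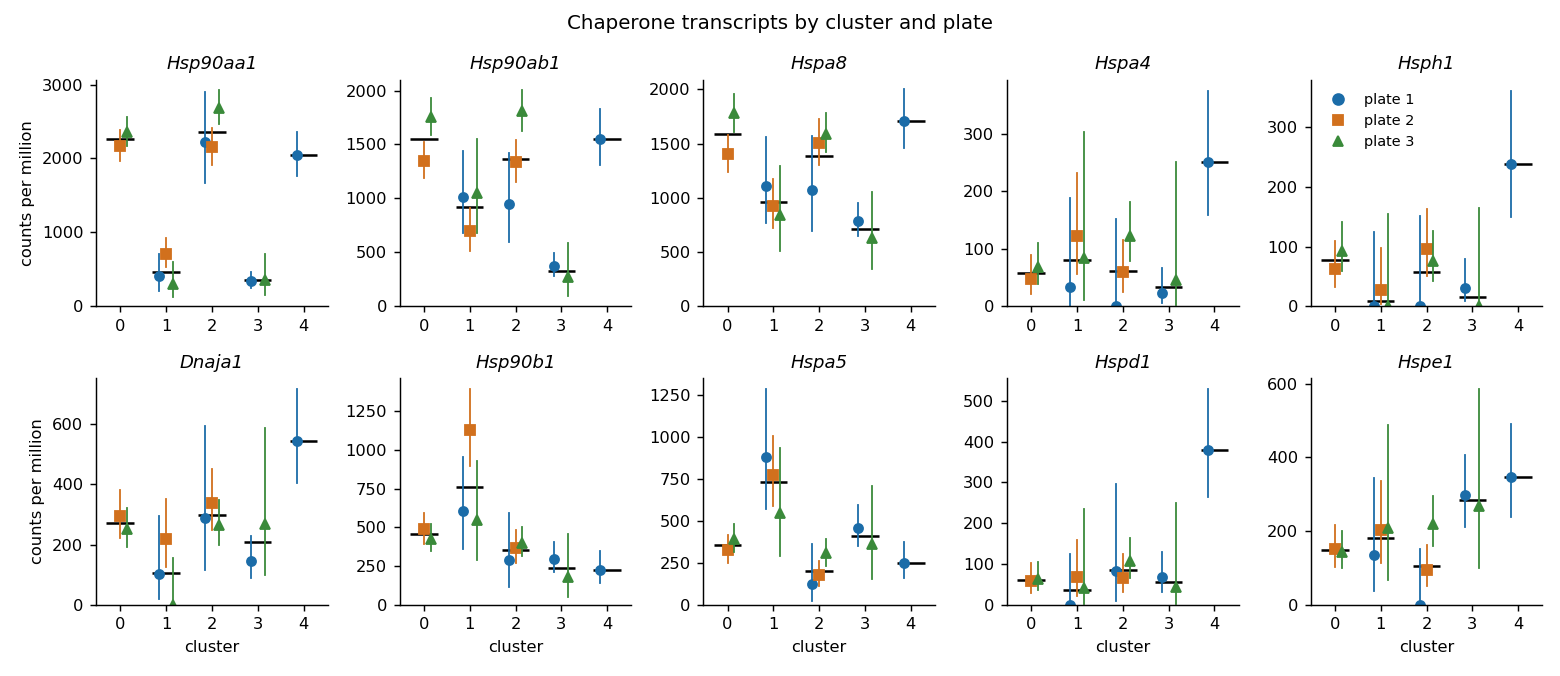
Level of each of the 10 chaperone genes in CPM (y axis, each panel on its own scale from 0) by cluster (x axis). Points are plates with at least 3 cells of the cluster, with exact Poisson 95% intervals, and horizontal lines are means over plates. Hsp90aa1 stands at 2042 to 2685 in clusters 0, 2 and 4 and at 294 to 707 in clusters 1 and 3, and Hspa5 reaches 545 to 876 in cluster 1.

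The ER chaperones had another pattern and were highest in the microglia-like cluster. Hsp90b1, or GRP94, which folds integrins and Toll-like receptors, was at 607, 1128 and 545 CPM in cluster 1 on plates 1 to 3, above its range in each other cluster (179 to 487 over 8 sums). Hspa5, or BiP, the ER HSP70 that also holds the stress sensors inactive, was at 876, 774 and 545 there, above the 123 to 459 of the other 8 sums. On the sum of both genes, cluster 1 stood at 1492 ± 406 CPM (SD, n = 3), cluster 0 at 815 ± 4.88 (n = 2), cluster 3 at 648 ± 155 (n = 2), cluster 2 at 554 ± 149 (n = 3) and cluster 4 at 478 (347 to 641) on plate 1; its single cell on plate 2 was at 2870 (1854 to 4229). With TMM scaling cluster 1 remained first in the mean, at 1233, but its range (736 to 1897) then held the 2 sums of cluster 0 (1032 and 1051). The 11 genes of the response to dissociation, such as Fos and Jun, were all highest in cluster 1, where they summed to 9588 CPM against 429 to 1166 in the other clusters, and their part in the ER levels was not tested. Of 8 other ER folding genes with at least 20 transcripts, 4 were highest in cluster 1 over pooled plates, 3 (Pdia6, P4hb and Manf, named after their values were seen) in cluster 4 and 1 in cluster 0. Among all 7599 genes with as many transcripts, 22.4% were highest in cluster 1 and 31.3% in cluster 4. Calr, the lectin chaperone calreticulin, stood at 700 CPM in cluster 1 against 189 to 346 elsewhere.

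The genes of inducible HSP70 were high in the microglia-like cells, where Hsp90aa1 and Hsph1 were low. Hspa1a and Hspa1b, 2 near-identical copies whose tags may be split between them, and which were picked out after their values were seen, had 25 and 59.1 transcripts in cluster 1 (197 and 465 CPM). Outside it they had at most 14.0 and 40.2 CPM in a cluster, and Hspa1a had 0 transcripts in clusters 3 and 4, which allows up to 19.1 and 29.8 CPM. Cryab, a small heat shock protein known from oligodendrocytes and also picked out after its values were seen, was at 3211 and 3723 CPM in clusters 0 and 2 and at 19.8 to 134 in the others.

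The mitochondrial pair did not move as 1 unit. Hspd1, the chamber, was at 36.6 to 85.0 CPM as a mean in clusters 0 to 3 and at 380 (265 to 529) in cluster 4. Hspe1, the lid, stood at 348 (238 to 491) in cluster 4, at 284 ± 20.7 (SD, n = 2) in cluster 3, at 183 ± 41.6 (n = 3) in cluster 1 and at 148 ± 5.41 (n = 2) in cluster 0. Cluster 2 spread from 0 on plate 1, where 3 cells allow up to 123 CPM, to 219 on plate 3. Over pooled plates Hspe1 made up 81.8% of the pair's transcripts in cluster 3 (45 of 55, exact binomial 95% interval 69.1 to 90.9%) and 47.1% in cluster 4 (32 of 68, 34.8 to 59.6%), 2 intervals that do not meet. Clusters 0, 1 and 2 stood at 71.1%, 80.0% and 63.6%. The intervals cover counting error only, and GENCODE lists 6 named pseudogenes of Hspe1, 5 of Hspd1 and 1 of Dnaja1, none of them a row of the table, so how their reads were shared is uncertain.

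**Figure D3:**
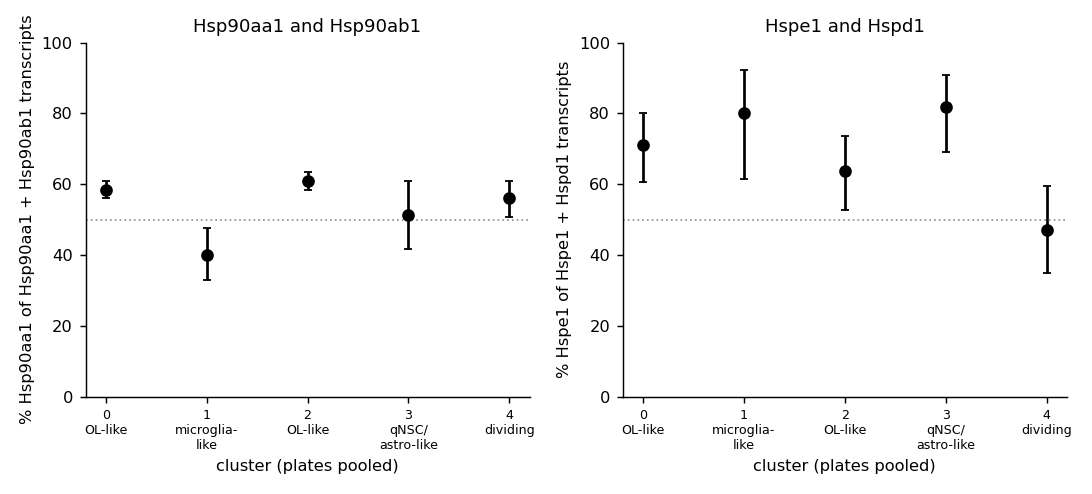
Share of Hsp90aa1 in the transcripts of the cytosolic HSP90 pair (left) and of Hspe1 in those of the mitochondrial pair (right), in percent, by cluster with plates pooled (x axis). Bars are exact binomial 95% intervals and the dotted line is at 50%; Hspe1 stands at 81.8% in cluster 3 and 47.1% in cluster 4.

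Likeness between members was measured across the 11 sums of a plate and cluster. The median Pearson correlation of log2 CPM was 0.56 over the 15 cytosolic pairs (range 0.029 to 0.914) and 0.62 for the ER pair. It was -0.18 over the 12 pairs of a cytosolic with an ER gene (-0.674 to 0.304), 0.36 over the 12 pairs of a cytosolic with a mitochondrial gene (-0.361 to 0.762), and 0.10 for Hspd1 with Hspe1. These are descriptions: the sums share plates, differ in depth and follow the clusters. Among 3853 genes with at least 5 transcripts per sum on average, the 5 most like Hsph1 were Cetn3 (r = 0.964), Gkap1 (0.955), Txn1 (0.950), Ranbp1 (0.903) and Atp11a (0.900). Those most like Hspa5 were Zfp710 (0.947), Rpn1 (0.930), Snx18 (0.925), Ccnl1 (0.912) and Camta2 (0.905). Hsph1 had 0 transcripts in clusters 1 and 2 of plate 1 and clusters 1 and 3 of plate 3. Its sum in cluster 4, at 239 CPM, lay far above the rest, at most 95.5, so its correlations lean on that 1 sum.

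Dividing cells were set against the quiescent stem cell or astrocyte-like cells of the same plate, to ask how the chaperones differ between cells in and out of the cell cycle. The comparison holds 5 cells of cluster 4 and 25 of cluster 3 on plate 1, so it has 1 sample a side and no test. Of the 10 members, 7 were at least 2-fold higher in cluster 4 and 0 were at least 2-fold lower. The members were chosen with earlier results of these data known, so this count is no independent support. Among all 4641 genes with at least 10 transcripts on both sides together, 33.4% were that much higher and 28.9% that much lower. The members' median log2 ratio was 1.97 and that of all these genes 0.22.

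The cytosolic members made up 6 of the 7. Hsp90aa1 was at 2042 CPM in cluster 4 and 344 in cluster 3, a ratio of 5.93 (exact 95% interval 4.27 to 8.41, counting error only), Hsp90ab1 at a ratio of 4.13 (2.98 to 5.86), Dnaja1 at 3.74 (2.17 to 6.71) and Hspa8 at 2.17 (1.69 to 2.82). Hsph1 had a ratio of 7.82 (2.65 to 31.2) from 22.0 and 4 transcripts, and Hspa4 one of 10.9 (3.29 to 56.7) from 23.0 and 3. Summed over these 6 genes, the 5 dividing cells ran from 5623 to 6858 CPM. The 25 cells of cluster 3 ran from 0 to 4136 with a median of 1667. Per cell this was 93.3 to 148 transcripts against 0 to 22.0, and cells of 1 plate are not replicates. The seventh was Hspd1, with a ratio of 5.53 (2.60 to 13.1), while Hspe1 stood at 1.17 (0.707 to 1.91). The cells of cluster 4 were also deeper, with a median of 17377 transcripts against 4192 in cluster 3 over all plates, and the part of depth was not tested.

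The 2 ER members lay the other way, both within 2-fold. Hspa5 had a ratio of 0.544 (0.321 to 0.894), from 459 CPM in cluster 3 to 250 in cluster 4, and Hsp90b1 one of 0.765 (0.427 to 1.33). The single dividing cell of plate 2 stood apart, with 2182 CPM of Hspa5 and 688 of Hsp90b1; with plates 1 and 2 pooled the log2 ratio of Hspa5 went from -0.88 to -0.09. TMM scaling lowered every log2 ratio, the median of all genes from 0.22 to -0.10. Hspa8 then lay under 2-fold (log2 0.80), Hspe1 below 0 (-0.10) and Hspa5 past 2-fold lower (-1.20). The members' median became 1.65, and 26.8% of all genes were then at least 2-fold higher and 33.8% at least 2-fold lower. Over all plates the 7 microglial markers summed to 367 CPM in cluster 4 and 675 in cluster 3, and the 6 oligodendrocyte markers to 298 and 630.

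**Figure D4:**
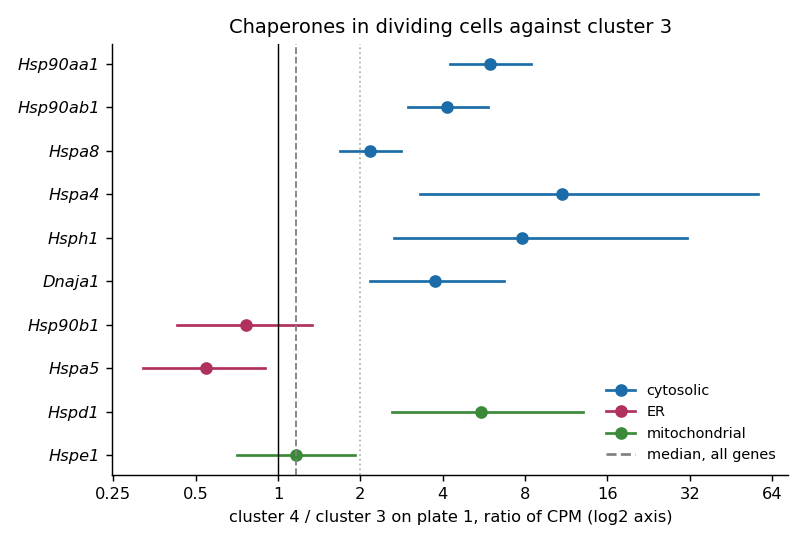
Ratio of CPM in cluster 4 (5 cells) to cluster 3 (25 cells) on plate 1 (x axis, log2 scale) for the 10 chaperone genes (y axis), with exact 95% intervals for counting error. The dashed line is the median of all 4641 genes and the dotted line marks 2-fold; the 6 cytosolic genes and Hspd1 lie past 2-fold, and both ER genes lie below 1.

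The wider chaperone list of 82 genes is given next; 81 of its genes are in the table. Of the 44 with at least 10 transcripts, 24 were at least 2-fold higher in cluster 4, 8 at least 2-fold lower and 12 within 2-fold, with a median log2 ratio of 1.26. Among all 4641 genes, 33.4% were at least 2-fold higher and 28.9% at least 2-fold lower, the base for the counts that follow. The wider list, too, was chosen with earlier results of these data known. The cytosolic chaperonin CCT, the ring that folds actin and tubulin, had 8 of 8 subunits at least 2-fold higher, Cct5 at a ratio of 9.67 (3.76 to 31.6) and Tcp1 at 6.16 (2.48 to 18.3), and its 8 subunits summed to 3055 CPM in cluster 4 against 534 to 1089 as means in the others. Co-chaperones of HSP90 had 5 of 6 higher, among them Stip1, which links HSP70 to HSP90, at 5.68 (2.26 to 17.0). Dnajc2, a J protein at the ribosome, was at 5.68 (1.83 to 23.4). ER folding genes had 0 of 7 higher, 1 lower and 6 within 2-fold, with a median log2 ratio of -0.036, near no change. The lower one was Pdia3, a disulfide isomerase, at 0.323 (0.0955 to 0.874). Calr, within 2-fold, was at 0.523 (0.262 to 0.988). Among genes with at least 20 transcripts, the lowest were Dnajb9, an ER J protein, at 0.0747 (0.00180 to 0.470) from 1 and 19.0 transcripts, followed by Pdia3, by Hspa4l, an HSP110 relative, at 0.444 (0.127 to 1.27), and by Calr.

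Autofluorescence, the light a cell gives off without a label, was measured for the same cells, and the series title asks whether it marks the activation state of stem cells. A cell above its plate's median counts as high, any other as low. Hsph1 was listed with this result known. Over all clusters Hsph1 stood at 16, 25.3 and 56.1 CPM in high cells of plates 1 to 3 and at 157, 130 and 100 in low cells (2, 5.00 and 14.0 against 27.0, 28.0 and 23.0 transcripts). Each plate was lower in high cells and the 2 sides did not overlap. The log2 change was -1.86 (SE 0.50, edgeR adjusted p = 0.0340). The fit called 3.89% of 3723 genes upward with autofluorescence and 0.134% downward. Hsph1 was 1 of the 5 called downward and the only one of the 10 members past the threshold.

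The other members did not pass. Hspd1 had -1.12 (SE 0.47, edgeR adjusted p = 0.318), Hspa4 -0.88 (adjusted p = 0.535), Hsp90aa1 -0.71 (adjusted p = 0.326) and Hsp90ab1 -0.71 (adjusted p = 0.352), while Dnaja1, Hspe1, Hspa8, Hsp90b1 and Hspa5 lay between -0.39 and 0.10. The median of the members was -0.55 and that of all genes -0.04. Of the wider list, 0 of 42 tested passed with edgeR (2 at an unadjusted p under 0.05) and 0 of 80 with DESeq2 (0 unadjusted). DESeq2 gave an adjusted p to only 5006 of its 13898 genes here, so fewer of the 80 may have been open to a call. Without plate 3, edgeR called 1.

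High and low cells differed in their clusters. Low cells held all 6 dividing cells, with 28.0 of the 78.0 Hsph1 transcripts on that side, and high cells held 32 of the 36 microglia-like cells, with 2 of 21.0. Clusters 0 and 2 gave 26.0 and 22.0 of the low transcripts, from 26 cells each, and 11 and 6.00 of the high ones, from 16 and 9 cells. The 7 microglial markers summed to 8095, 11416 and 3411 CPM in high and 667, 1787 and 223 in low cells of plates 1 to 3. With cluster 4 left out and the medians taken anew, Hsph1 had -1.33 (edgeR adjusted p = 0.236) and was lower in high cells on 3 of 3 plates. With cluster 1 left out it had -1.10 (adjusted p = 0.703), and plate 3 then stood at 87.7 CPM in high and 70.8 in low cells. The call was also lost without the plate block (-1.88, adjusted p = 0.375), with DESeq2 (-2.04, adjusted p = 0.336), without plate 1 (-1.44, adjusted p = 0.0723) and without plate 2 (-1.64, adjusted p = 0.599). Without plate 3 it held (-2.75, adjusted p = 0.0115).

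To set cells of the same cluster against each other, high and low cells were next taken by the median of their own plate and cluster. Hsph1 stood at 83.9, 49.6 and 65.1 CPM in high and 110, 115 and 96.6 in low cells of plates 1 to 3, lower on 3 of 3 plates without overlap. The log2 change was -0.64 (SE 0.40, edgeR adjusted p = 0.949), which did not pass. These are the cells of the comparison over all clusters, so the shared direction is no separate support. Of 3540 genes tested, edgeR called 0.0% higher and 0.0% lower, with 186 at an unadjusted p under 0.05, and DESeq2 called 0 with 50 unadjusted. Over 11 alternatives the log2 change of Hsph1 ran from -0.86 to -0.37 and its edgeR or DESeq2 adjusted p from 0.696 to 1.00. The difference between the changes over all clusters and within clusters was not tested.

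The largest change of a member within clusters was that of Hspa4, -0.86 (SE 0.42, edgeR adjusted p = 0.949), at 59.2 ± 24.9 CPM in high and 113 ± 14.5 in low cells (SD, n = 3). The other 8 lay between -0.29 (Hspa5) and 0.31 (Hspd1), 7 of the 10 were negative, and the median was -0.12 against 0.02 for all genes. Of the wider list, 0 of 42 passed with edgeR (2 unadjusted) and 0 of 80 with DESeq2 (0 unadjusted). The 3 cells that were alone in their cluster on a plate all fall on the low side; without them Hsph1 had -0.53 (edgeR adjusted p = 0.861). High cells were deeper on each plate, though by little on plate 2. Median transcripts per cell were 6077.62, 7720.39 and 8259.74 in high and 4219.63, 7668.79 and 5425.44 in low cells of plates 1 to 3. The part of depth was not tested. The mix of cells still differed between the sides. Cluster 4, where Hsph1 is highest, made up 24.6% of the high and 36.8% of the low side on plate 1, by transcripts, with 10.0 of 12 and 12 of 17.0 Hsph1 transcripts. On plate 2 its shares were 0% and 4.54%. The 7 markers of dividing cells summed to 2819, 248 and 281 CPM in high and 4308, 610 and 177 in low cells of plates 1 to 3. Microglial markers summed to 2968, 5074 and 1119 in high and 4553, 7906 and 3085 in low cells, and oligodendrocyte markers to 9658, 66721 and 60986 against 9897, 45926 and 51413. With cluster 4 left out Hsph1 had -0.75 (edgeR adjusted p = 0.997) and with cluster 1 left out -0.84 (adjusted p = 0.999); the part of the other markers was not tested.

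**Figure D5:**
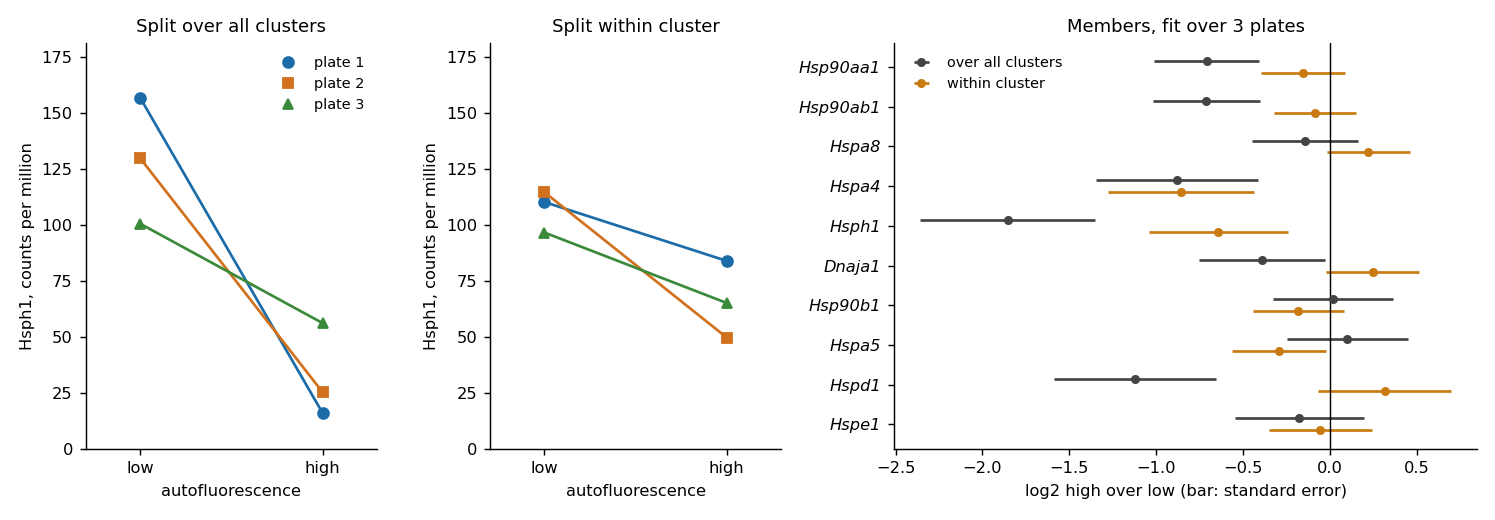
Level of Hsph1 in CPM (y axis) in cells of low and high autofluorescence on each plate, split over all clusters (left) or within cluster (middle), and the log2 change of the 10 chaperone genes (right, x axis) with standard errors. Hsph1 lies at 100 to 157 in low and 16 to 56.1 in high cells when split over all clusters, and at 96.6 to 115 and 49.6 to 83.9 when split within cluster.

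Single plate and cluster groups of at least 6 cells gave a mixed picture. Hsph1 was detected in 6 of these 8 groups and its summed level was lower in the high cells of 5. The differences were largest in cluster 2 of plate 2, at 41.7 CPM in 5 high and 223 in 5 low cells (4.00 and 9 transcripts), and in cluster 0 of plate 3, at 66.2 and 130 in 13 cells each (9 and 13). Cluster 0 of plate 2 was at 54.7 and 70.3, cluster 2 of plate 3 at 74.9 and 79.4, and cluster 3 of plate 1 at 25 and 39.4 from 2 transcripts a side. Cluster 1 of plate 2 went the other way with 2 transcripts in high cells and 0 in low cells. With cells weighted equally, only 3 of the 6 groups were lower in high cells, and the Spearman correlation over cells was negative in 3, ranging from -0.198 to 0.485. Each group's difference rests on few transcripts, 22.0 at most, and was not tested. For the 6 cytosolic genes summed, 4 of 8 groups were lower in high cells, for the ER pair 5 and for the mitochondrial pair 3.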

How the data were processed

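Per the labels, 3 samples are 3 plates of 1 group; the plate was read from the last digit of a cell's library name. The deposited values are estimated counts: per cell and gene, the authors had corrected the number of molecular identifiers for collisions. Inverting that correction for 4096 identifiers gave whole numbers for 100% of 349688 values above 0 (tolerance 1e-06). Each cell also has a deposited autofluorescence intensity with no stated unit. Cluster numbers are the authors' deposited labels. Seurat 4.1.1, BWA 0.7.15, R 4.2.0 and the builds mm10 and hg19 are listed, with no role, in the submitters' processing notes. The labels do not state the annotation. Of the cell table, 13 columns stayed unused.

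Transcripts were summed per plate and cluster (at least 3 cells, 11 sums) and divided by all transcripts. Cluster 4 was compared with cluster 3 as a ratio with an exact binomial interval. High and low autofluorescence were compared on rounded sums with edgeR 4.0.16 in R 4.3.3 (TMM, its filter on low counts, quasi-likelihood test, plate as a block, Benjamini-Hochberg over all genes, 0.05); DESeq2 1.42.0, RLE, no filter, no block, recovered identifiers and left-out plates or clusters were alternatives. Plate is the block since high and low cells share it. Nothing says that cells of a plate are separate animals. The p-values set the difference between high and low cells against its variation over plates. With so few plates, the fit estimates that variation partly from other genes. The edgeR fits were also run on simulated counts without a plate effect or a difference in clusters, which does not check the calls reported here. The floor for a count of 0 is 3 counts. Correlations used log2(CPM + 10). Coordinates are from GENCODE (GRCm38) and RefSeq.

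The members and the wider lists were chosen with earlier results of these data known. Named were the 10 members, wider-list genes past the threshold with autofluorescence or, in cluster 4 over 3, among the 4 highest and 4 lowest ratios with at least 20 transcripts, and the 5 genes most like Hsph1 and Hspa5; exceptions are marked.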

Additional observations from a re-analysis of the deposited data

How the results depend on the processing

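All values rest on few cells and plates, and intervals cover counting error only. With single cells admitted, the cytosolic level of cluster 4 was 7645 CPM and that of Hsp90aa1 in cluster 3 was 645. In cluster 4, 33.4% of 4641 genes were at least 2-fold higher and 28.9% lower. A minimum of 20 transcripts left 792 of 2222 genes higher (35.6%) and 657 lower (29.6%). Keeping instead every gene with a transcript in both clusters gave 2390 of 7402 higher (32.3%) and 23.8% lower. The members at least 2-fold higher were 6 or 7 under each of 6 alternatives. Hsph1 was lower in the high cells of 3 groups by Spearman correlation and of 3 by the mean over cells. Within plate and cluster, no filter gave 2 lower genes, leaving out lone cells (chosen after seeing the data) 3, and leaving out a plate 0 to 1 higher and 0 to 3 lower. Over all clusters, genes higher and lower were 91 and 4 with DESeq2, 249 and 58 with no filter, 0 and 0 without the plate block (207 at an unadjusted p under 0.05), 10 and 1 without cluster 1, and 39 to 161 and 0 to 25 with a plate left out.

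The log2 change of Hsph1 over all clusters was -2.04 with DESeq2, -1.88 without the replicate block, -1.33 without cluster 4, -1.10 without cluster 1 and -2.75 to -1.44 with a plate left out. Small changes turned sign, none of them past the threshold. Within clusters these were Hsp90aa1 (0.075 without cluster 4, 0.040 with plate and cluster as block), Hspe1 (0.014 without the plate block, -0.29 to 0.25 with a plate left out) and Hsp90b1 (-0.46 to 0.068 with a plate left out). Over all clusters they were Hspa5 (-0.31 without cluster 1, -0.21 to 0.32 with a plate left out), Hspe1 (0.013 without cluster 4, -0.65 to 0.049), Dnaja1 (0.12 without cluster 4), Hsp90b1 (-0.14 without cluster 4, -0.12 without cluster 1, -0.25 to 0.27) and Hspa8 (0.074 without cluster 4, -0.41 to 0.15). The cause was not tested. With plate and cluster as block 682 genes were tested, and Hsph1, Hspa4 and Hspd1 were not among them. High and low cells share their plate, so the replicate block is part of the reported fits.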
